A study of Mus musculus with 12 samples.

Results

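High and low GSK3 inhibition were compared directly in mouse mammary organoids, with the vehicle libraries set aside. The comparison rests on 6 of the 12 libraries of the series, namely the 3 grown in 3 µM CHIR99021 and the 3 grown in 1 µM CHIR99021. They were chosen by their titles alone and paired by culture, since each of the 3 cultures (called cultures 1, 2 and 3 here) gave 1 library at each concentration. The organoids are small clusters of primary mammary epithelium from female virgin FVB/N mice aged 8 to 11 weeks, 1 animal per culture. They were embedded in Matrigel with reduced growth factors, kept in a minimal medium and exposed to the compound for 7 days. Both groups therefore carry the inhibitor, by the labels differ in its concentration alone, and have no transgene or deletion. Polyadenylated RNA from whole organoids was sequenced, so each value is a sum over every cell type in the well.

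GSK3 is a kinase that, together with the scaffold proteins AXIN and APC, marks β-catenin for degradation. CHIR99021 occupies its ATP site, so that β-catenin builds up, enters the nucleus and acts with the TCF and LEF factors on WNT target genes. GSK3 also phosphorylates many other proteins, glycogen synthase among them, and its inhibition is therefore not the same as adding a WNT ligand. In the mammary gland WNT signals maintain basal cells, and sustained β-catenin activity in this epithelium is known for turning it towards a squamous, skin-like state.

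Library totals ran from 14.6 to 19.4 M counts (M, mega), and the group means were 18.1 ± 1.39 M for 1 µM against 16.3 ± 1.98 M for 3 µM (SD, n = 3). Values are counts per M counts (CPM) on library sizes corrected by edgeR's trimmed-mean factors (TMM), and they are not divided by transcript length, so levels are compared only within a gene. In a principal component analysis of the 6 libraries the first axis, with 76.0% of the variance, separated all 3 libraries of 3 µM from all 3 of 1 µM. The second axis held 14.1% and placed cultures 1, 2 and 3 in the same order at both concentrations. Their scores on it were −41.0, −9.20 and 27.4 at 1 µM and −34.8, −5.87 and 63.5 at 3 µM. The 43 keratin genes in the table took between 0.553% and 0.773% of all counts at 1 µM and between 2.70% and 6.62% at 3 µM, where culture 3 had the lowest share. Epithelial genes were present throughout: Krt18 lay between 357 and 550 CPM over the 6 libraries, though it was called lower at 3 µM (log2 fold change −0.43). Epcam and Cdh1, 2 adhesion genes of epithelia, had log2 fold changes of 0.08 and 0.01 and were not called. In the list of 12 simple epithelial genes that holds all 3, described below, 3 were higher and 4 lower.

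Most of the measured transcriptome differed between the concentrations. In edgeR's quasi-likelihood test with culture as a block, 7695 of 14490 genes (53.1%) passed an adjusted p of 0.05, after the method of Benjamini and Hochberg over all genes tested. Of these, 3677 (25.4%) were higher and 4018 (27.7%) lower at 3 µM, around a median log2 fold change of −0.05 over all genes tested. The decreases were larger than the increases: their median log2 fold change was −1.30, against 0.85 for the increases, and 2489 lower genes but 1532 higher genes passed a 2-fold change. At 8-fold the counts were 562 lower and 334 higher. In 3675 of the 3677 higher genes and 4015 of the 4018 lower genes all 3 cultures moved the same way, and in 3452 and 3463 the 2 groups did not overlap. The calls come from the same 6 libraries, so these counts describe the called genes and are not separate evidence for them. Long intergenic noncoding RNAs were lower in 112 (35.6%) and higher in 17 (5.4%) of 315 tested. Antisense RNAs were lower in 50 (30.7%) and higher in 4 (2.45%) of 163. Pseudogenes were higher in 59 (28.4%) and lower in 19 (9.13%) of 208. Their share of higher genes was thus near that over all genes, and their share of lower genes was below it. Because the tissue was measured in bulk, a decrease can come from fewer cells of a type or from less RNA in each, and these cannot be told apart. Of 143 genes described here, 49 overlap a gene on the opposite strand in GENCODE M21, and their counts are uncertain to that extent. Among them are Uox (with Dnase2b), Tgfb3 (Ttll5), Ddit3 (Mars), Dmbt1 (Fgfr2), Fen1 (Tmem258), Pfkm (Senp1), Gapdh (Iffo1), Srebf1 (Rai1), Ctnnb1 (Ulk4) and Pgm2 (Itgb3bp). The choice of scaling bears on the balance of directions: with library size only, 2501 genes were higher and 5325 lower, around a median of −0.27, which puts 32.0% of calls on the higher side against 47.8% with TMM. The fit without culture 2 called 1948 genes (949 higher, 999 lower), so the genes named below that lose their call there are marked in their paragraphs.

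**Figure D1:**
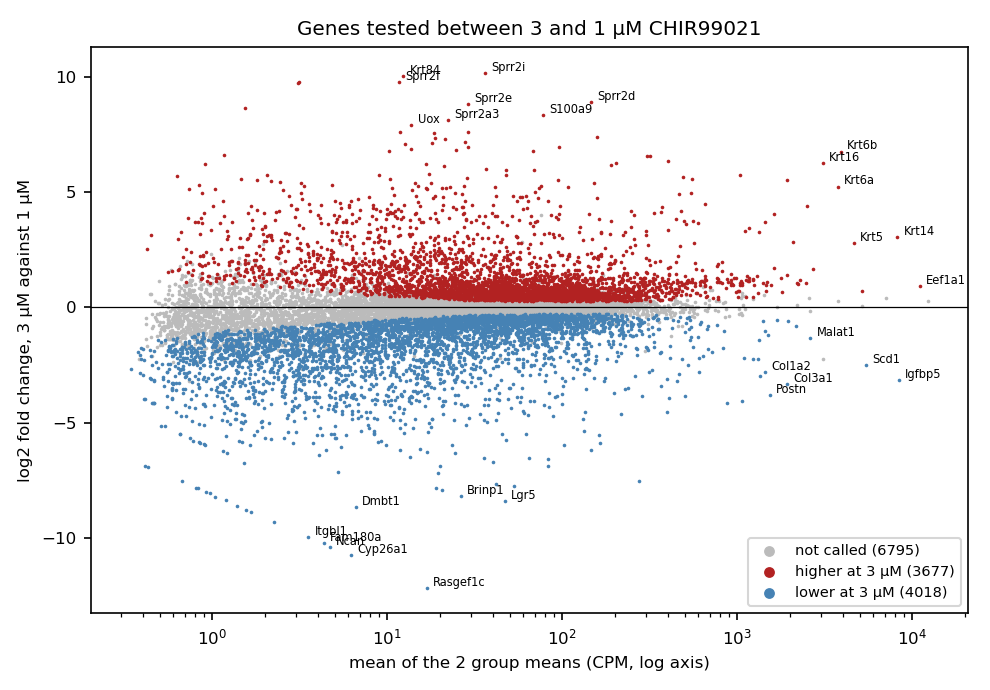
Each point is 1 of the 14490 genes tested, placed by the mean of its 2 group means in CPM (log axis) and by its log2 fold change at 3 against 1 µM, in red for 3677 higher genes, blue for 4018 lower genes and grey for those not called. Labels mark genes with the largest fold or CPM differences, and the keratins Krt14, Krt5, Krt6a, Krt6b and Krt16 stand at the upper right. The row of points that slopes down at the lower left has 0 counts at 3 µM, where the fitted fold change depends on the prior count.

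Axin2 and Lgr5, 2 members of the list of WNT feedback and target genes, moved in opposite directions between the 2 concentrations. Axin2, a scaffold of the β-catenin destruction complex that is itself a WNT target, measured 19.6, 5.72 and 7.20 CPM in cultures 1, 2 and 3 at 1 µM and 126, 62.5 and 50.2 CPM at 3 µM. Every 3 µM library was above every 1 µM library, and the log2 fold change was 2.96 ± 0.19 (SE, n = 3 pairs, edgeR adjusted p = 0.00117). Lgr5, a receptor for R-spondins and a stem cell marker in several epithelia, went from 95.4, 75.6 and 109 CPM down to 0.448, 0.239 and 0.132 CPM. That is a ratio of means of 342, with a log2 fold change of −8.40 ± 0.29 (edgeR adjusted p = 0.000500). Lgr5 thus fell in all 3 cultures, while Axin2 rose in all 3.

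Of 23 listed WNT feedback and target genes 18 could be tested, and 6 were higher (33.3%) and 4 lower (22.2%) at 3 µM. Their median log2 fold change was −0.29. Among all genes 25.4% were higher and 27.7% lower. The counts of the list are near those shares, so the values below describe single genes. Besides Axin2, the higher genes were Tcf7 (log2 fold change 2.09), the ubiquitin ligase gene Znrf3 (0.84), the receptor gene Tnfrsf19 (4.27), the cyclin gene Ccnd1 (1.83) and Myc (1.43). The lower ones besides Lgr5 were the secreted inhibitor genes Dkk3 (−1.61) and Wif1 (−0.76) and the decoy receptor gene Bambi (−0.63). Nkd1, Rnf43 and Lef1 were not called, at −0.75, 0.28 and −0.15. Of the 18, 8 were not called, and the count of lower genes was 1 without culture 1 and 2 without culture 2. Dkk3 and Wif1 are the weakest of these calls: that of Wif1 was lost in the fit of all 12 libraries (edgeR adjusted p = 0.102), and that of Dkk3 without the block (0.319).

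Among 30 receptors and intracellular components 4 were higher (13.3%) and 13 lower (43.3%), beside 25.4% and 27.7% over all genes. Their median was −0.32, and without culture 2 the counts were 1 and 4. Fzd10, a Frizzled receptor gene, rose from 0.866, 0.477 and 0.554 CPM to 10.9, 10.8 and 8.25 CPM (log2 fold change 3.99 ± 0.28, edgeR adjusted p = 0.00132), while Fzd9, Fzd4 and Fzd1 were lower, at −3.21, −2.36 and −1.98. The TCF family was split in the same way. Tcf7 rose from 14.4, 8.63 and 9.58 CPM to 47.3, 44.8 and 43.8 CPM, whereas Tcf7l2 fell from 100, 86.6 and 75.0 CPM to 25.0, 20.0 and 22.0 CPM (log2 fold change −1.96 ± 0.11, edgeR adjusted p = 0.000963) and Tcf7l1, usually a repressor of WNT targets, fell by 1.71 on the log2 scale. In none of these 3 genes did the groups overlap. The transcripts of the drug's own targets differed by little: Gsk3a had a log2 fold change of 0.46 and Gsk3b of −0.17 (edgeR adjusted p = 0.0149 and 0.354). Ctnnb1, which encodes β-catenin, stood at 949, 848 and 681 CPM at 1 µM and at 1177, 1153 and 1545 CPM at 3 µM, just outside the threshold (log2 fold change 0.64, edgeR adjusted p = 0.0504), and DESeq2 called it (0.00508). Without culture 2 the calls of Znrf3, Tnfrsf19, Bambi, Dkk3, Fzd4, Tcf7l1 and Gsk3a were lost, with the sign unchanged.

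The largest increases lay mostly in genes of the outer epidermis. By fold, the 8 leading genes with at least 50 counts on average were 5 small proline-rich protein genes (Sprr2i, Sprr2f, Sprr2d, Sprr2e and Sprr2a3), the nail and tongue keratin gene Krt84, the calprotectin subunit gene S100a9 and the urate oxidase gene Uox. Sprr2i, which encodes a precursor of the cornified envelope, had 3 counts in all 3 libraries of 1 µM together and 3292 at 3 µM, a ratio of 1421 after scaling, with an exact 95% counting interval from 486 to 6895. Krt84 and Sprr2f each had 1 count at 1 µM in all, against 1126 and 1066 at 3 µM, so their ratios of 1458 and 1381 have counting intervals that start at 261 and 247. Sprr2d was measured more deeply, with 0.815, 0.668 and 0.166 CPM at 1 µM and 254, 198 and 419 CPM at 3 µM (log2 fold change 8.92 ± 0.51, edgeR adjusted p = 0.000963). S100a9 went from 0.764, 0.477 and 0.111 CPM to 116, 161 and 188 CPM. In all 5 of these genes each 3 µM library was above each 1 µM library. The intervals cover counting error only. The Sprr2 genes are a family of close relatives, among which the division of reads is uncertain.

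The 5 Sprr2 genes and S100a9 sit in the epidermal differentiation complex. This stretch of mouse chromosome 3 gathers the S100, small proline-rich, late cornified envelope and filaggrin-type genes. Krt84 lies on chromosome 15, and Uox on chromosome 3 but outside the complex. Between the outer ends of S100a1 and S100a10 (chr3:90511034-93564643, in the coordinates of the deposited table) 70 genes are listed and 59 were tested. At 3 µM 55 were higher, 3 were lower and 1, Sprr4, was not called, beside 25.4% higher and 27.7% lower among all genes. The median log2 fold change was 4.48, and 49 of the 59 rose more than 8-fold. The 3 lower genes, S100a1, S100a13 and S100a4, are all S100 genes, which encode small calcium-binding proteins, and lie near the outer S100 end of the complex. All 3 lost the call without culture 2.

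**Figure D2:**
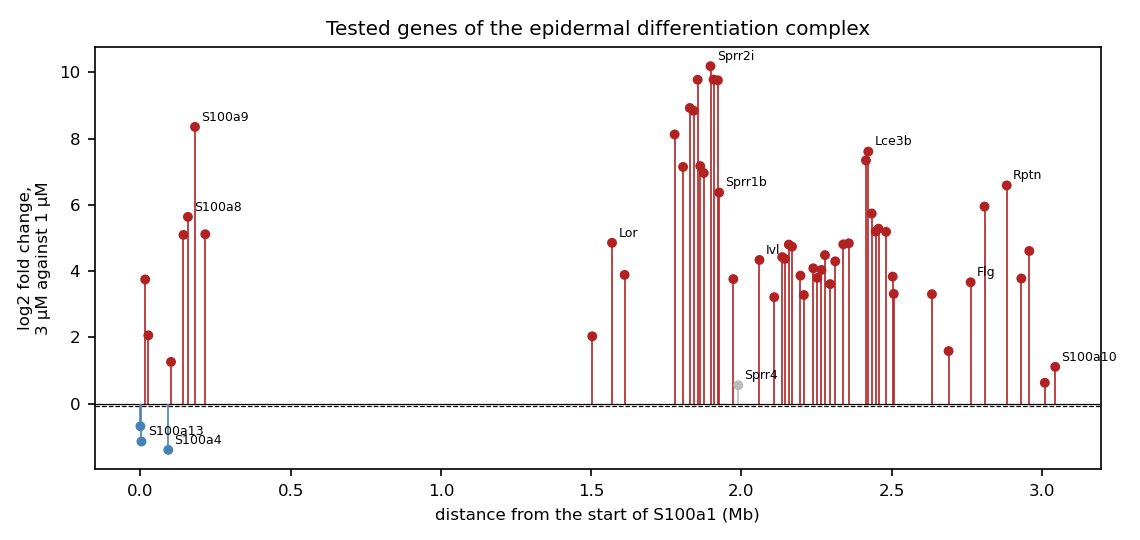
The 59 tested genes of the epidermal differentiation complex on mouse chromosome 3 are drawn by their distance from the start of S100a1 (Mb) against the log2 fold change at 3 against 1 µM, with red for higher, blue for lower and grey for not called; the dashed line is the median of all genes tested. The tallest lines belong to the small proline-rich cluster around Sprr2i, and the 3 blue ones, S100a1, S100a13 and S100a4, stand at the left end.

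Promoter windows of 3 members of this locus are shown because the binding motif of AP-1, a factor long linked to these genes, is more frequent here than among promoters at large. The motif was taken as TGANTCA on either strand, in RefSeq windows of GRCm38.p6 that run from 250 bases before to 50 bases after a start site. It was found in 19 of 51 windows of tested genes in the complex (37.3%) and in 12 of 29 windows of the cornified envelope list (41.4%), against 7.8% of all 32851 promoter windows. Windows were found for 50 of the 59 and 27 of the 29 genes. The complex and the list share genes, Flg2 among them, and hold families of close relatives such as Sprr2. The windows are therefore not independent, and the shares are a description. The 250 bases before the start are printed 5′ to 3′ on the gene's strand, with the motif in capitals.
Sprr2d: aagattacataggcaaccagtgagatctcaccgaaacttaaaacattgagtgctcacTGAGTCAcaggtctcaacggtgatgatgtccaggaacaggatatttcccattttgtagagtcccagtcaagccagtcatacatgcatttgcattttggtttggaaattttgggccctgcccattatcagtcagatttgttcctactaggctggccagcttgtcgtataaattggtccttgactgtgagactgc
Sprr2i: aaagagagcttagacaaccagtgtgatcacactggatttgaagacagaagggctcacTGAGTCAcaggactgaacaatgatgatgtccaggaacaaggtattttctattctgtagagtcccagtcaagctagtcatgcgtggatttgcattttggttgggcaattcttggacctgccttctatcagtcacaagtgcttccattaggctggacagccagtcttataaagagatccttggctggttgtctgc
Sprr1b: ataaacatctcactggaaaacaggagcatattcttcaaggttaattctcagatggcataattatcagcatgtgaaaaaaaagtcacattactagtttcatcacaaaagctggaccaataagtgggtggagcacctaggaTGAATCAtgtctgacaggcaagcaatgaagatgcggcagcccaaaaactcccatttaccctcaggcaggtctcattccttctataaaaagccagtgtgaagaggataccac
These are chr3:92338890-92339139 on the plus strand, chr3:92407741-92407990 on the plus strand and chr3:92438780-92439029 on the minus strand. In Sprr2d and Sprr2i the motif begins 193 bases before the start, and the 2 printed stretches are identical at 174 of 250 positions (69.6%) without gaps. In Sprr1b, whose level went from 12.7, 9.78 and 4.71 CPM to 967, 1101 and 304 CPM, it begins 111 bases before the start. A match is a description of the letters, and binding was not measured.

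Epidermal genes were mostly higher in every layer, and the medians of the outer layers were above that of the basal one. Of the 16 basal-layer genes tested 12 were higher (75%) and 1 lower (6.2%), beside 25.4% and 27.7% over all genes. The median log2 fold change was 1.33, and without culture 2 the count of higher genes was 7. Krt14 and Krt5, the keratin pair of basal keratinocytes and of mammary basal cells, are both among the 6 largest increases in CPM: Krt14 rose from 2112, 1553 and 1400 CPM to 16967, 18939 and 8371 CPM (log2 fold change 3.06 ± 0.26, edgeR adjusted p = 0.00183) and Krt5 from 1262, 1054 and 1047 CPM to 9614, 9810 and 5039 CPM. Trp63, the p63 factor of stratified epithelia, rose from 118, 75.0 and 57.6 CPM to 466, 377 and 406 CPM. In these 3 genes the groups did not overlap, and culture 3 was the lowest at 3 µM in both keratins but not in Trp63. The lower gene was Krt15, another keratin of basal cells, at 85.3, 66.4 and 102 CPM against 47.1, 27.5 and 14.9 CPM, a call lost without culture 2 (edgeR adjusted p = 0.110). Itga6, Lamb3 and Dst, which encode parts of the hemidesmosome and its anchor, were not called, at 0.06, 0.69 and −0.34.

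All 16 suprabasal genes tested were higher, beside 25.4% of all genes, with a median of 3.94. So were 28 of 29 cornified envelope genes, with a median of 4.74. Krt1, a keratin of spinous cells, went from 75.8, 168 and 6.48 CPM to 6424, 4670 and 258 CPM (log2 fold change 5.51 ± 0.40, edgeR adjusted p = 0.00141). Its partner Krt10 went from 141, 217 and 31.2 CPM to 8381, 6133 and 147 CPM, so that culture 3 at 3 µM stood below culture 2 at 1 µM, and its call was lost without culture 2 (edgeR adjusted p = 0.100). The transglutaminase gene Tgm3, which cross-links the envelope, rose from 2.09, 2.48 and 0.443 CPM to 433, 497 and 17.2 CPM, and the envelope protein gene Lor from 5.45, 5.06 and 0.332 CPM to 167, 121 and 15.1 CPM. Culture 3 was the lowest at both concentrations in all 4 of these genes. Flg2, of the filaggrin family, had the smallest called change in the envelope list, at 1.59, with groups that overlapped and a call that was lost without culture 2 and without culture 1.

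Of 14 barrier lipid genes 11 were higher and 1, the sphingomyelinase gene Smpd1, lower, beside 25.4% and 27.7% over all genes. Their median was 3.22. Alox12b, a lipoxygenase needed for the skin's lipid envelope, rose from 0.866, 0.382 and 0.0554 CPM to 48.1, 52.6 and 45.7 CPM (log2 fold change 6.83 ± 0.50, edgeR adjusted p = 0.00142), here to a like level in all 3 cultures. The call of Smpd1 was lost in 7 of 10 other settings. Wound and stress genes of keratinocytes were higher in 12 of 14, with a median of 5.17, and Lcn2 and Slpi were not called. The keratins of this list were among the largest increases in CPM: Krt6b rose from 65.4, 84.9 and 38.3 CPM to 10806, 9854 and 2544 CPM, Krt6a from 200, 175 and 178 CPM to 8585, 9121 and 4318 CPM and Krt16 from 83.2, 83.5 and 63.4 CPM to 7195, 7412 and 3680 CPM. Defb3, an antimicrobial β-defensin gene, rose from 0.204, 0.143 and 0.166 CPM to 13.4, 17.1 and 30.0 CPM. Krt6a and Krt6b are close copies, and reads may be divided between them with error.

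Other gene clusters of stratified epithelia were mostly higher too. In the type II keratin cluster (chr15:101349571-102032026) 12 of 16 tested genes were higher (75.0%) and 3 lower (18.75%). In the type I cluster (chr11:99232761-100269871) 7 of 10 were higher (70%) and 3 lower (30%). Over all genes these shares were 25.4% and 27.7%. All 9 tested genes of the serpin B cluster (chr1:106861173-107610484), which encode intracellular protease inhibitors, were higher, with a median of 4.61. Of the lower keratins, Krt8, Krt18 and Krt19 are simple-epithelial and described below, and Krt15 is described above. The other lower ones, Krt71 (log2 fold change −4.90) and Krt9 (−3.67), had the largest decreases of the keratin clusters. Krt71 and Krt9 stand outside the counts over genes named in the text.

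Transcription factors of squamous epithelia were higher in 16 (69.6%) and lower in 2 (8.7%) of 23, beside 25.4% and 27.7% over all genes. Their median was 0.85, and 8 were higher without culture 2. Klf4, a factor of the skin barrier, went from 36.8, 30.4 and 24.3 CPM to 353, 340 and 210 CPM (log2 fold change 3.29 ± 0.12, edgeR adjusted p = 0.000500). Grhl3, a grainyhead-like factor of the barrier, rose from 5.04, 3.58 and 4.10 CPM to 72.8, 64.1 and 43.4 CPM, and the POU factor gene Pou3f1 from 3.16, 1.05 and 0.222 CPM to 32.7, 25.0 and 9.97 CPM. No 3 µM library of these 3 genes reached down to the 1 µM level. Ovol2 and Cebpa were lower, at −0.88 and −0.77, and both calls were lost without culture 2 and without culture 1. Of the hair and nail genes 7 were higher (53.8%) and 3 lower (23.1%) of 13 tested (2 higher without culture 2 and 4 without culture 1). The share of lower genes was thus not above that over all genes. Of the 24 listed, 11, all of them keratins and most of the hair shaft, were not among the genes tested. Foxn1, a factor of hair and nail differentiation, rose from 0.917, 0.716 and 0.665 CPM to 15.3, 12.4 and 4.75 CPM, whereas Edar, the ectodysplasin receptor gene of early hair buds, fell from 8.61, 7.58 and 18.0 CPM to 0.373, 0.179 and 0.132 CPM (log2 fold change −5.55 ± 0.48, edgeR adjusted p = 0.00188).

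**Figure D3:**
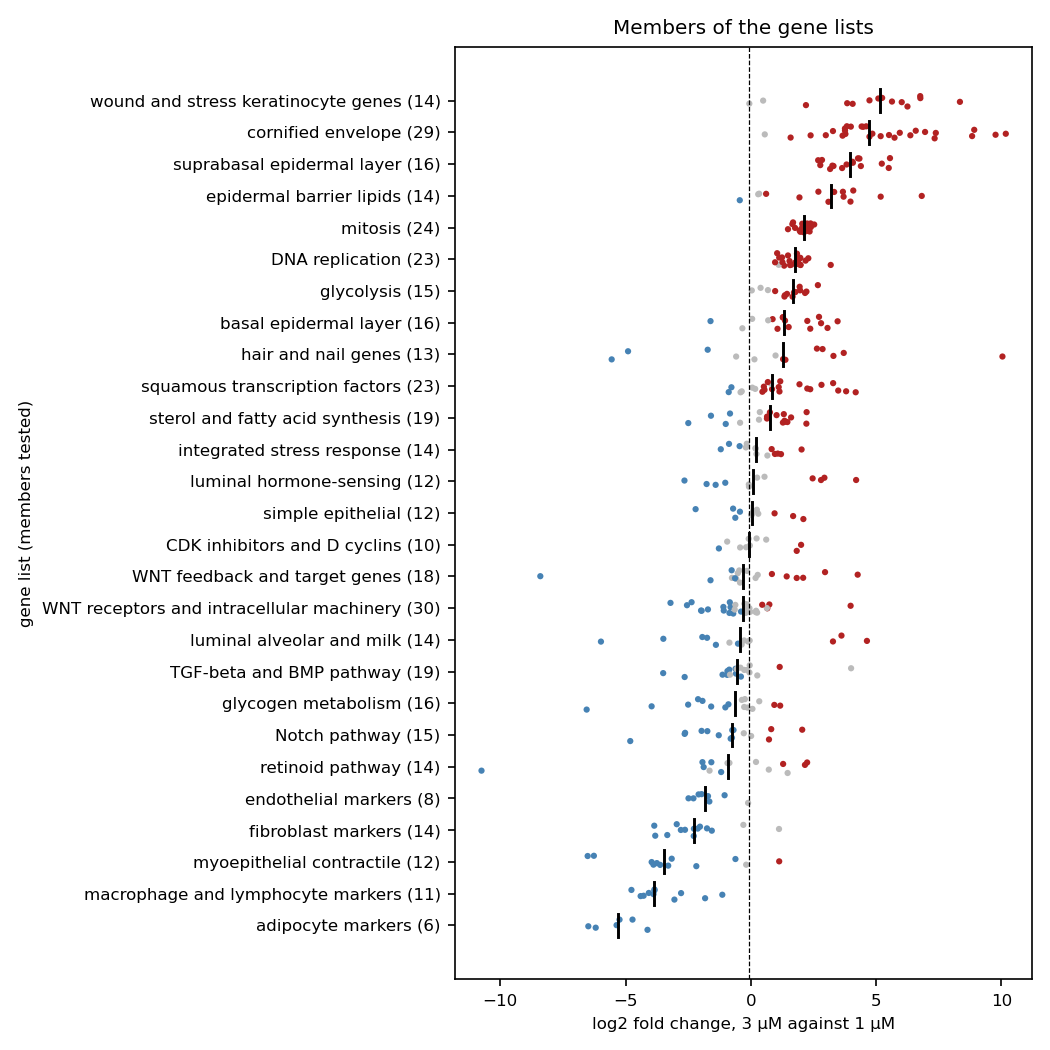
Each point is 1 tested gene of 1 of the 27 lists (members tested in parentheses), placed by its log2 fold change at 3 against 1 µM and coloured red for higher, blue for lower and grey for not called; black bars are list medians and the dashed line is the median of all genes tested, −0.05. Lists of the outer epidermis stand at the top, up to a median of 5.17, and the adipocyte list is at the bottom with a median of −5.30.

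Cell cycle genes rose together. All 24 mitosis genes tested were higher, with a median of 2.13, and 22 of 23 DNA replication genes, with a median of 1.78, beside 25.4% of all genes. Fen1, a flap endonuclease gene with 9 to 40 counts per library, was not called (log2 fold change 1.12). Mki67, the proliferation antigen, measured 58.5, 82.1 and 74.3 CPM at 1 µM and 359, 424 and 131 CPM at 3 µM (log2 fold change 1.95 ± 0.39, edgeR adjusted p = 0.0138). Cdk1, the mitotic kinase gene, went from 14.1, 17.2 and 16.5 CPM to 98.7, 119 and 47.5 CPM. Rrm2, a subunit of ribonucleotide reductase, rose from 14.6, 16.7 and 11.0 CPM to 183, 185 and 58.6 CPM. The groups did not overlap in these 3 genes, and culture 3 had the smallest rise in each. The summed level of the mitosis list ranged from 330 to 416 CPM at 1 µM and was 1922, 2517 and 821 CPM at 3 µM. With culture 2 left out, 2 mitosis genes and 7 replication genes were still called, and Mki67 (edgeR adjusted p = 0.108), Cdk1 (0.0514) and Ccnb2 (0.0787) were not. Mki67 also missed without culture 1 (edgeR adjusted p = 0.0507).

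The promoters of Cdk1 and of the cyclin gene Ccnb2 are printed because both hold matches to elements known from mitotic genes. These are the NF-Y box CCAAT and the cell cycle homology region TTTGAA, each searched on both strands and marked in capitals. The printed stretches are the 250 bases before the RefSeq start in GRCm38.p6, 5′ to 3′ on the gene's strand.
Cdk1: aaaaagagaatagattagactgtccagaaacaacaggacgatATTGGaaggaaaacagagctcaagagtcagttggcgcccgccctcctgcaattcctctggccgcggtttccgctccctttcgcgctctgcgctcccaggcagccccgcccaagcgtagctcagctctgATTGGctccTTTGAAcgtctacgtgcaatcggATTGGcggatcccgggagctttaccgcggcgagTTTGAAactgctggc
Ccnb2: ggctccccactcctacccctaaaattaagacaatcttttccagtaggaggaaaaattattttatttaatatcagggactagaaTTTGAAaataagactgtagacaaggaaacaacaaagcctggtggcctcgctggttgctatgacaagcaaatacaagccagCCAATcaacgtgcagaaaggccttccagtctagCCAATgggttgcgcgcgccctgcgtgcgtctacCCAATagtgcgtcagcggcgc
The first is chr10:69352913-69353162 and the second chr9:70421555-70421804, both on the minus strand. In Cdk1 the NF-Y boxes begin 208, 80 and 48 bases before the start and the TTTGAA matches 71 and 15 bases before it. Ccnb2 rose from 6.06, 8.49 and 6.65 CPM to 36.1, 51.9 and 14.3 CPM. It has NF-Y boxes at 87, 54 and 21 bases and 1 TTTGAA match at 167 bases before the start. The TTTGAA match of Ccnb2 thus lies farther from the start than all of its NF-Y boxes. In Cdk1 the TTTGAA match at 15 bases lies nearer to the start than all of its NF-Y boxes. Whether the matches act as a pair was not tested. Over all 32851 promoter windows of RefSeq 37.4% hold CCAAT and 17.9% TTTGAA. Of the 24 mitosis genes 19 have a window, so the motifs of the list as a whole are not described.

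Of 10 genes for CDK inhibitors, which hold the cycle back, and for D-type cyclins, which drive it, 7 were not called. The inhibitor gene Cdkn1a and the cyclin gene Ccnd1 were higher and the inhibitor gene Cdkn2c was lower. The shares of 20% higher and 10% lower are below those over all genes (25.4% and 27.7%), so the values describe single genes. Cdkn1a, which encodes the inhibitor p21, rose from 58.5, 90.3 and 91.5 CPM to 284, 303 and 367 CPM (log2 fold change 2.01 ± 0.14, edgeR adjusted p = 0.00125), and at 3 µM culture 3 was the highest in this gene where it was the lowest in Mki67.

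Glycolysis genes were higher in 12 of 15 and lower in none, beside 25.4% higher over all genes, with a median of 1.67. Hk1, Pfkm and Gapdh were not called. Gapdh, usually an abundant transcript, had only 50 to 128 counts per library in the deposited table, so its value is a poor measure of the gene. Pgk1, phosphoglycerate kinase, went from 135, 118 and 131 CPM to 789, 859 and 810 CPM (log2 fold change 2.68 ± 0.12, edgeR adjusted p = 0.000610), and the glucose transporter gene Slc2a1 from 130, 109 and 79.3 CPM to 329, 442 and 709 CPM. Egln3, an oxygen-sensing prolyl hydroxylase that is induced when oxygen is short, went from 3.52, 5.44 and 10.7 CPM to 363, 533 and 908 CPM, and it shares with Btn1a1 and Prelp the lowest adjusted p of all genes (edgeR, 0.000484). Egln3 is in no list and was picked for that p. The call of Slc2a1 was lost without culture 2 (edgeR adjusted p = 0.0754).

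Of 19 sterol and fatty acid genes 12 were higher (63.2%) and 4 lower (21.1%), beside 25.4% higher and 27.7% lower over all genes. The share of lower genes was thus not above that over all genes, and the lower ones are described as single genes. The higher ones are mainly cholesterol genes, such as the isomerase gene Idi1 at 52.9, 59.9 and 47.4 CPM against 314, 361 and 132 CPM. The 4 lower ones are the sterol feedback gene Insig1, the regulator Srebf1 and the fatty acid enzymes Fasn and Scd1. Scd1, a desaturase, had the second largest decrease in CPM, from 10912, 13330 and 4015 CPM to 1341, 1637 and 1527 CPM (log2 fold change −2.49 ± 0.41, edgeR adjusted p = 0.00769). The adipocyte markers given below fell in the same libraries, and their part in the decrease of Scd1 was not tested. Without culture 2 the list kept 3 higher and 0 lower calls.

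Glycogen genes, which act around the substrate that gave GSK3 its name, were higher in 2 (12.5%) and lower in 8 (50%) of 16. Over all genes the shares were 25.4% and 27.7%. The median of the list was −0.62, and without culture 2 its counts were 1 and 4. Ppp1r3c, which targets a phosphatase to glycogen, fell from 189, 145 and 159 CPM to 1.42, 1.02 and 2.97 CPM (log2 fold change −6.55 ± 0.33, edgeR adjusted p = 0.000806). The 2 higher genes were the phosphoglucomutase genes Pgm1 and Pgm2. Genes of the integrated stress response were higher in 5 and lower in 3 of 14, near the share over all genes (25.4% and 27.7%). The serine and asparagine synthesis genes Psat1 and Asns were higher, at 2.03 and 1.08, and Ddit3, a stress factor, was lower at −1.20. Among the largest increases in CPM outside these lists was Eef1a1, a translation elongation factor, from 8072, 6793 and 7808 CPM to 15529, 14380 and 13707 CPM, a change of 0.95 on the log2 scale. Eef1a1 (edgeR adjusted p = 0.0724), Ddit3 (0.171) and Pgm1 (0.0575) lost their calls without culture 2, and Eef1a1 and Ddit3 also without culture 1.

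The largest decreases by fold were led by genes without a single read at 3 µM. Rasgef1c, a Ras exchange factor gene, measured 47.8, 30.3 and 22.5 CPM at 1 µM and 0 counts in all 3 libraries of 3 µM, so it was at least 506-fold lower against a floor of 3 counts over the group. Cyp26a1, an enzyme that degrades retinoic acid, fell at least 187-fold from 12.7, 14.6 and 9.81 CPM. For Ncan, Fam180a and Itgbl1, also at 0 counts, the bounds were 142, 131 and 107. Dmbt1 had 723 counts at 1 µM, most of them in culture 3 (35.3 CPM against 2.34 and 1.86 CPM in cultures 1 and 2), and 1 count at 3 µM, a ratio of 558 with a counting interval from 99.9 to 22080. Lgr5, above, and the neuronal gene Brinp1, from 48.7, 43.9 and 64.6 CPM to 0, 0.119 and 0.396 CPM, complete the 8. By CPM the largest decrease was that of Igfbp5, a binding protein for insulin-like growth factors, from 15022, 14208 and 15818 CPM to 1693, 1159 and 2545 CPM (log2 fold change −3.13 ± 0.26, edgeR adjusted p = 0.00162). Malat1, a nuclear noncoding RNA, fell from 3421, 4402 and 3114 CPM to 1329, 903 and 2563 CPM, and its call was lost without culture 1 and without culture 2.

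The contractile genes of myoepithelial cells were lower in 10 of 12, beside 27.7% of all genes, with a median of −3.46. Myl9, a myosin light chain, fell from 24.5, 25.9 and 49.9 CPM to 0.448, 0.299 and 0.528 CPM (log2 fold change −6.26 ± 0.23, edgeR adjusted p = 0.000500), Oxtr, the oxytocin receptor through which milk is let down, from 70.7, 103 and 209 CPM to 2.46, 0.896 and 0.594 CPM, and Acta2, smooth muscle actin, from 109, 149 and 297 CPM to 18.4, 15.6 and 5.61 CPM. The groups did not overlap, and culture 3 was the highest at 1 µM in all 3. Tpm2, a tropomyosin, was higher (1.13) and Smtn not called (−0.18). The contractile genes thus fell in the libraries in which Krt5, Krt14 and Trp63, which myoepithelial cells also express, rose. Without culture 2 the calls of Acta2 (edgeR adjusted p = 0.0746) and Tpm2 (0.170) were lost.

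Of 12 genes of hormone-sensing luminal cells 4 were higher and 4 lower, near the share over all genes (25.4% higher, 27.7% lower), so the values below describe single genes. Without culture 2, and without the block, 2 were lower. Esr1, the oestrogen receptor, stood at 22.2, 13.3 and 12.3 CPM against 10.5, 5.20 and 3.50 CPM, and Pgr, the progesterone receptor, at 3.52, 1.96 and 11.1 CPM against 0.523, 0.597 and 1.12 CPM. Prlr and Greb1 were the other lower genes. Areg, a ligand of the EGF receptor that hormones induce in the gland, rose instead, from 1.38, 2.24 and 2.83 CPM to 32.1, 41.5 and 43.0 CPM (log2 fold change 4.21 ± 0.18, edgeR adjusted p = 0.000610), as did the WNT ligand gene Wnt4, Prom1 and Ly6a. The call of Esr1 was lost without culture 2 (edgeR adjusted p = 0.0637) and without the block (0.0546), and that of Greb1 in both as well.

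Alveolar and milk genes were higher in 3 and lower in 6 of 14, beside 25.4% higher and 27.7% lower over all genes, with a median of −0.44. Without culture 2, 3 were lower. Btn1a1, a protein of the milk fat globule membrane, fell from 189, 181 and 234 CPM to 3.06, 2.63 and 3.89 CPM, nearly alike in the 3 cultures (log2 fold change −5.98 ± 0.12). The caseins were divided: Csn2 rose from 0, 0.0954 and 0.997 CPM to 0.896, 1.31 and 26.8 CPM and Csn1s1 also rose (3.28), whereas Csn3 fell from 4.08, 5.25 and 35.5 CPM to 1.34, 1.37 and 10.8 CPM. They are the 3 genes that could be tested in the casein cluster (chr5:87666224-87932665). Culture 3 held most of both transcripts at either concentration, so the groups overlap and the calls rest on the pairing: without the replicate block the adjusted p (edgeR) was 0.0747 for Csn2 and 0.268 for Csn3. In the simple epithelial list 3 of 12 were higher and 4 lower, again near the share over all genes. Krt19 fell from 1259, 1049 and 696 CPM to 224, 187 and 227 CPM (log2 fold change −2.20 ± 0.22, edgeR adjusted p = 0.00252), Krt8 and Krt18 by 0.71 and 0.43 on the log2 scale, while Krt7, the keratin of ducts, rose from 111, 77.3 and 72.5 CPM to 185, 291 and 386 CPM. Without culture 2 the calls of Krt8, Krt18 and Krt7 were lost and that of Krt19 was not, and without culture 1 those of Krt8 and Krt18 were lost.

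Genes of 3 other signalling pathways were read against the share over all genes, 25.4% higher and 27.7% lower. Of 15 Notch genes 10 were lower and 3 higher, with a median of −0.75, and 4 were lower without culture 2. The Notch target gene Hey2 fell from 12.6, 13.8 and 13.1 CPM to 0.448, 0.478 and 0.462 CPM (log2 fold change −4.81 ± 0.23, edgeR adjusted p = 0.000701), and Hey1 and Heyl by 2.64 and 2.62 on the log2 scale. The ligand genes Jag1 and Jag2 and the feedback gene Nrarp were the 3 higher members, Nrarp from 24.2, 13.5 and 21.4 CPM to 89.8, 62.2 and 90.3 CPM. The targets of one pathway thus differed in direction within the same libraries. In the TGF-β and BMP list 9 of 19 were lower and 1, Bmp7, higher, and 3 were lower without the block, 5 without culture 1 and 2 without culture 2. Tgfb3, a TGF-β ligand, fell from 524, 389 and 402 CPM to 38.5, 38.0 and 38.8 CPM (log2 fold change −3.50 ± 0.13, edgeR adjusted p = 0.000525). Grem1, a secreted BMP inhibitor, was not called and differed widely between cultures: it measured 4.28, 3.58 and 1.55 CPM at 1 µM and 8.22, 42.5 and 392 CPM at 3 µM (edgeR adjusted p = 0.0721, DESeq2 0.0149). Of 14 retinoid genes 3 were higher and 5 lower, near the share over all genes, and without culture 2 these counts were 1 and 2. Crabp1 and Crabp2, which encode proteins that bind retinoic acid in the cell, were among the higher ones, at 2.16 and 1.29. Without culture 2 the calls of Hey1, Jag1, Jag2, Crabp1 and Crabp2 were lost, and that of Crabp1 also without culture 3.

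Markers of cells other than epithelium were lower at 3 µM, and their amounts differed between the cultures at 1 µM. Of 14 fibroblast genes 12 were lower (85.7%), beside 27.7% of all genes. The summed level of the 14 was 4259, 10623 and 25345 CPM at 1 µM and 338, 1377 and 5602 CPM at 3 µM. Col3a1, a fibrillar collagen gene, fell from 450, 2169 and 7763 CPM to 41.4, 189 and 943 CPM (log2 fold change −3.33 ± 0.17, edgeR adjusted p = 0.000743), and Col1a2 from 509, 1927 and 4800 CPM to 48.6, 266 and 1086 CPM. Each culture fell, but culture 3 at 3 µM stood above culture 1 at 1 µM in both, and without the block neither was called (edgeR adjusted p = 0.113 and 0.158) and 5 of the 14 fibroblast genes were lower. Postn, a matrix protein gene, fell from 1983, 2423 and 3801 CPM to 51.9, 164 and 763 CPM, a call lost without culture 2 (edgeR adjusted p = 0.0777). Dcn, the decorin gene, was not called: it went from 26.3, 172 and 617 CPM to 13.2, 107 and 1025 CPM, down in cultures 1 and 2 and up in culture 3.

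All 11 macrophage genes that could be tested were lower, beside 27.7% of all genes. They had a median of −3.85 and a summed level of 323 to 2253 CPM at 1 µM and 42.3 to 129.7 CPM at 3 µM. C1qb, a complement component made by macrophages, fell from 8.56, 24.1 and 27.5 CPM to 0.523, 1.14 and 0.462 CPM. The lymphocyte genes Cd3e and Cd79a had too few counts to test at either concentration. Endothelial genes were lower in 7 of 8 (4 without culture 2), with a summed level of 115 to 362 CPM against 30.7 to 95.2 CPM, and Vwf was not called. All 6 adipocyte genes were lower, with a median of −5.30 and a summed level of 999 to 3519 CPM against 34.6 to 222 CPM. Adipoq, the adiponectin gene, fell from 286, 374 and 117 CPM to 8.07, 15.6 and 0.660 CPM (log2 fold change −5.36 ± 0.52, edgeR adjusted p = 0.00231). These 4 groups of markers fell in the same libraries in which the epidermal and cell cycle lists rose and the contractile list fell, and their part in those results was not tested.

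Some genes differed widely between cultures in the size of their change. Among called genes with at least 50 counts on average and 1 direction in all 3 cultures, the widest spreads between cultures on the higher side were in Serpinb3a, Prl8a9 and Krt84. Serpinb3a, a squamous protease inhibitor gene with close copies, had log2 ratios of 7.18, 4.43 and 1.95 in cultures 1, 2 and 3, and Krt84 of 8.21, 7.91 and 3.42. Prl8a9, a gene of the prolactin family, had the reverse order, with 3.48, 5.54 and 8.48 and a level of 100 CPM in culture 3 at 3 µM. On the lower side the widest were Nxpe5 (−1.93, −3.22 and −7.85), Myh3, an embryonic muscle myosin gene (−0.96, −5.85 and −2.88), and C1qtnf3 (−8.64, −6.55 and −3.99), whose call was lost without culture 2 (edgeR adjusted p = 0.0667). These log2 ratios use a prior count of 2, and cultures are 1 animal each, so differences between cultures carry no test here.

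The libraries of 1.5 µM entered no fit but show where along the range the genes had moved. The shares below use TMM factors over all CHIR99021 libraries together. The CPM printed for 1.5 µM have that scaling too, while those for 1 and 3 µM keep the scaling of the 6 libraries. With log2 CPM, the mean at 1.5 µM lay between those at 1 and 3 µM in 91.9% of higher and 92.0% of lower genes. The median share of the 1 to 3 µM change reached at 1.5 µM was 35.8% for higher and 37.5% for lower genes, where an even change per log of concentration would give 36.9% and an even change per µM 25%. The mitosis list was far along, with a median share of 73.3% over its 24 called genes, and the DNA replication list had 65.6%. The shares use means over the cultures, and a fall from 1.5 to 3 µM in culture 3 makes them larger. Such a fall was seen in Mki67 (231 to 131 CPM) and Ccnb2 (20.9 to 14.3 CPM), whereas Cdk1 and Rrm2 rose further in culture 3. Suprabasal and cornified lists had 60.1% and 55.2%, while basal epidermal genes had 28.9% and glycolysis genes 26.6%. The same 1 µM and 3 µM libraries enter every share, and no test was made.

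**Figure D4:**
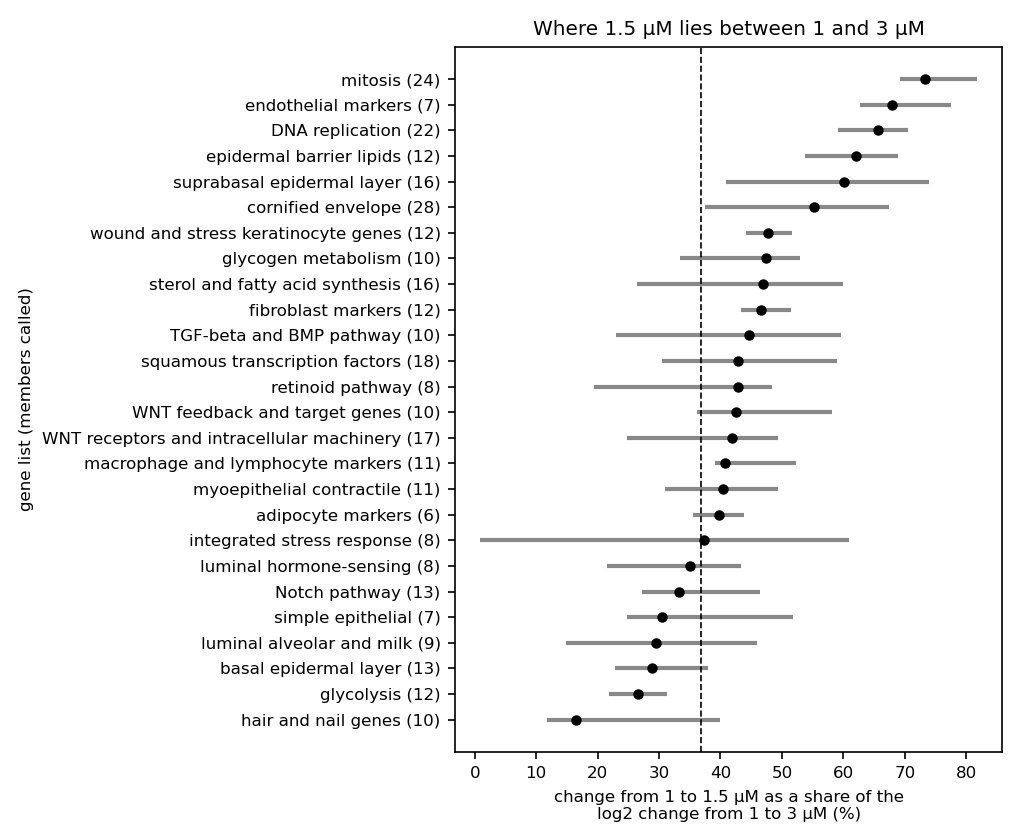
For each list, the point is the median over its called members (number in parentheses) of the change in mean log2 CPM from 1 to 1.5 µM as a percent of the change from 1 to 3 µM, and the grey bar runs from the lower to the upper quartile; the dashed line at 36.9% is an even change per log of concentration. The mitosis list is highest at 73.3% and the hair and nail list lowest at 16.6%.

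Single genes show the difference in course. Mki67 stood at 244, 243 and 231 CPM at 1.5 µM, so that cultures 1 and 2 rose further to 3 µM and culture 3 went back to 131 CPM. Krt1 was at 1220, 1472 and 328 CPM at 1.5 µM, and in culture 3 it did not rise beyond that. Flg2 was higher at 1.5 µM (20.0, 22.3 and 5.56 CPM) than at 1 µM (1.02, 2.62 and 0.277 CPM) or at 3 µM (6.42, 3.94 and 0.924 CPM) in every culture. Wif1 was also highest at 1.5 µM in cultures 1 and 2, with 50.7 and 50.1 CPM, but not in culture 3, with 20.0 CPM. Cdkn1a, in contrast, had reached 7.5% of its change at 1.5 µM, and Krt7 3.7%. Pgk1 was at 160 and 156 CPM in cultures 1 and 2 at 1.5 µM but at 477 CPM in culture 3, and Egln3 at 6.37, 9.83 and 235 CPM, so in these 2 genes culture 3 was ahead of the others.

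**Figure D5:**
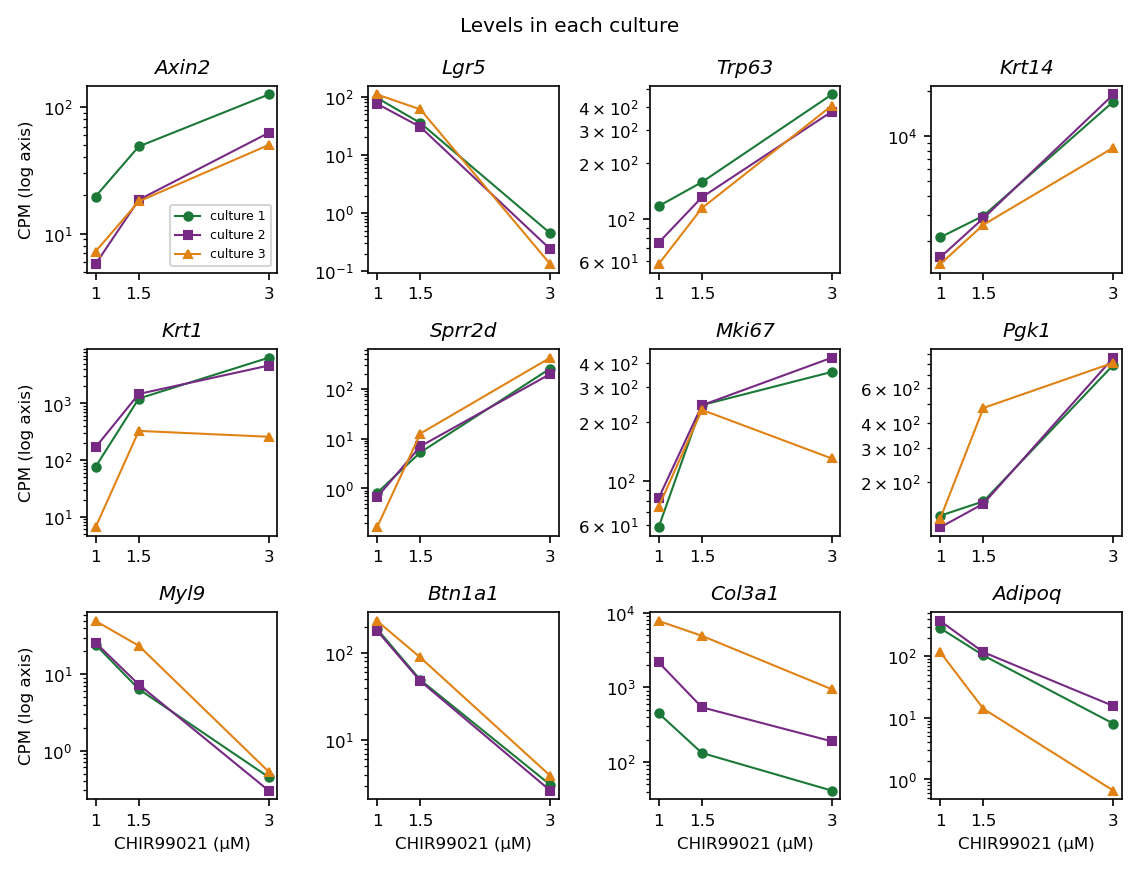
Levels of 12 genes in CPM (log axis, a different range in each panel) are drawn against the CHIR99021 concentration (µM), with 1 line per culture. Values at 1.5 µM use TMM factors over all CHIR99021 libraries, and those at 1 and 3 µM use factors over the 6 libraries compared. Axin2, Trp63, Krt14, Sprr2d and Pgk1 rose and Lgr5, Myl9, Btn1a1, Col3a1 and Adipoq fell at each step in all 3 cultures, while Krt1 and Mki67 in culture 3 were lower at 3 than at 1.5 µM.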

How the data were processed

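The authors deposited raw read counts per Ensembl gene for 12 libraries and a table of log2 values, which equal log2 of the scaled counts plus 1 (0 differed by over 1e-09) and were not used further. Per the submitters' processing notes, TopHat2 2.1, Bowtie 1.1.0, HTSeq and DESeq2 were used with GRCm38 (mm10). The library kit was stranded, per the labels' protocols. The strand setting of the counting is not given in the sources used here, so reads of genes that overlap on opposite strands cannot be told apart.

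From the counts of the 6 libraries, genes were kept with filterByExpr (14490), scaled with TMM and tested with edgeR 4.0.16 (glmQLFit, robust, and glmQLFTest, two-sided, with replicate and group as terms). P-values were adjusted by Benjamini and Hochberg over all genes tested, at 0.05. Fold bounds use 3 counts over a group. Of 25210 gene IDs, 24902 are in GENCODE M21, which was used for overlaps.

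The replicate number pairs libraries because, per the labels, it marks the animal. Deviations from the group means correlated at 0.560, 0.273 and 0.476 for equal numbers and at most at 0.0422 for unequal ones. No library was a copy of another (chi-square per degree of freedom 15.4 or more). The block removes differences in level between cultures. The p-values therefore set the change between concentrations against the spread of that change over these 3 cultures, which edgeR estimates in part from the other genes. The printed SE is the size of the log2 fold change divided by the square root of the test's F statistic. It is not the SE of the 3 culture ratios and can be smaller than that. Counts were also simulated for 6 libraries with 14312 genes, 200 genes set to change and no differences between cultures. There 91.8% of genes changed 4-fold and 27.6% of those changed 2-fold were called, as were 8 unchanged genes. The real libraries differ between cultures and had 7695 genes called, so these rates need not hold for them.

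The comparison, the 27 gene lists (464 genes, 458 in the table) and the loci were chosen with earlier results of these data known. Named genes are the 8 largest changes by fold, the 6 largest by CPM and the 3 with the widest range over cultures in each direction, among called genes with 1 direction in all cultures and at least 50 counts on average, plus any list member. Other members of loci, Egln3 and the promoters were chosen after their values were seen. The kallikrein cluster is not analysed here. Alternatives were no block, all 12 libraries, DESeq2, other scalings and filters, and leaving out each culture.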

Additional observations from a re-analysis of the deposited data

How the results depend on the processing

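In none of the 10 other settings was a gene called in the direction opposite to the paired fit. The number of genes called was 7695 with the replicate block and 6552 without it (3345 higher, 3207 lower), 10107 in the fit of all 12 libraries, 7311 with DESeq2, 7826 with library size only, 7771 with relative log expression factors, 7722 of 23697 genes with no filter and 6670 of 12298 genes with a mean of at least 50 counts. Leaving out 1 culture gave between 1948 and 9767 calls, with 949 to 4941 higher and 999 to 4826 lower. Without culture 2 the count was 1948, without culture 1 5178 (2425 higher), and without culture 3 9767; fits with 1 culture fewer have fewer libraries, and why the counts differ between cultures was not tested. Of the 1948 genes called without culture 2, 1947 were called in the same direction with all cultures. Where a list count moved by over 1.5 times, it was mostly in that setting: 2 mitosis, 7 DNA replication, 3 sterol and fatty acid, 7 basal epidermal and 8 squamous factor genes were then higher, whereas 15 suprabasal, 25 cornified envelope, 9 fibroblast and 6 adipocyte genes kept their direction and count within that range. Among the genes named in the text, 18, 42 and 3 lost their call without cultures 1, 2 and 3, and 0 changed sign in any setting while called. The 42 are marked beside their results, and of the 18 Bambi, Dkk3, Wif1, Gsk3a, Greb1, Jag1, S100a1 and Tpm2 are added here. Without the replicate block 16 of the named genes lost their call, among them Wnt4, Crabp1, Ddit3, Flg2, Jag1, Myh3 and S100a4 besides those given above. Depth limits what can be said of genes with few counts at 1 concentration, and the folds of Sprr2i, Krt84, Sprr2f and Dmbt1 are known only within their counting intervals.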
